A study of Mus musculus with 61 samples.

Results

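Single germinal vesicle (GV) oocytes from females without functional ZFP708 were compared with GV oocytes of wild-type females across all expressed genes. The KO group held 7 libraries, each from 1 oocyte labelled ZFP708 maternal null, and the WT group held 7 libraries, each from 1 wild-type oocyte. A gene was tested if it had at least 1 normalized count in at least 7 of these 14 libraries, which 11775 of the 18396 genes in the table did. The 14 libraries belong to a series of 61 that also covers zygotes, 2-cell embryos, blastocysts and embryonic stem cells. The KO allele came from a founder line with a small CRISPR/CAS9 deletion that shifts the reading frame within the KRAB-coding region of *Zfp708*. By qRT-PCR of the study the mutant mRNA is not degraded, and abundance of that transcript is therefore no check on genotype. Strain, age and the number of females behind each group are not given in the sources used here. Oocytes of 1 group may therefore share a mother or a collection, the p-values cover only library-to-library spread, and any effect of mother or collection day cannot be told apart from that of genotype.

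A GV oocyte is arrested in meiotic prophase. Its growth is complete or nearly so, it transcribes little, and its store of mRNA serves maturation, fertilization and the first embryonic divisions. KRAB zinc-finger proteins bind DNA through their zinc fingers and recruit TRIM28, which in turn brings H3K9 methyltransferases, HP1 and the NuRD deacetylase complex to silence retrotransposons. ZFP708 is such a protein, encoded in the *Rsl* cluster on chromosome 13, and it binds RMER19B long terminal repeats. The question is which oocyte transcripts differ when the female lacks it.

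Values are normalized counts, in which the reads of a gene are divided by the size factor of the library, and they are comparable between libraries but not per transcript length. KO libraries held 2486334 to 4669017 reads in genes (median 3464208) and WT libraries 3229275 to 4165668 (median 3838268). A read was worth between 0.208 and 0.396 normalized counts. At this depth a median of 13706 genes had at least 1 read in KO oocytes and 13978 in WT oocytes (difference in means -249.0, exact two-sided permutation p = 0.046, adjusted p = 0.161 over 7 library measures). Mitochondrially encoded genes took up 0.285% to 0.642% of the counts in KO oocytes and 0.234% to 0.526% in WT oocytes.

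Several WT libraries stood apart. WT oocyte 6 had 1552 genes that lay over 2-fold from the median of the other 13 libraries and WT oocyte 1 had 1212, followed by WT oocyte 3 with 589 and WT oocyte 4 with 368. KO oocytes had 187 to 353 such genes, and WT oocytes 2, 5 and 7 had 156 to 261. Each KO oocyte correlated with the other 6 at a mean Pearson r of 0.975 to 0.981 over genes, against 0.943 to 0.968 for the WT oocytes. The groups did not overlap in this measure (exact two-sided permutation p = 0.000583, the smallest that 3432 splits can give, adjusted p = 0.00408). The values of a group share pairs of libraries and are not independent, so this p does not measure how alike WT oocytes are in general. With the KO oocytes, WT oocytes 2, 5 and 7 had a mean r of 0.976 to 0.978, against 0.965 to 0.968 within WT. The means within WT include pairs with the WT oocytes that stood apart. They therefore do not show how alike WT oocytes 2, 5 and 7 are to one another. For 75.7% of genes the SD on the log2 scale was larger in WT, with a median of 0.244 in KO and 0.367 in WT.

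**Figure D1:**
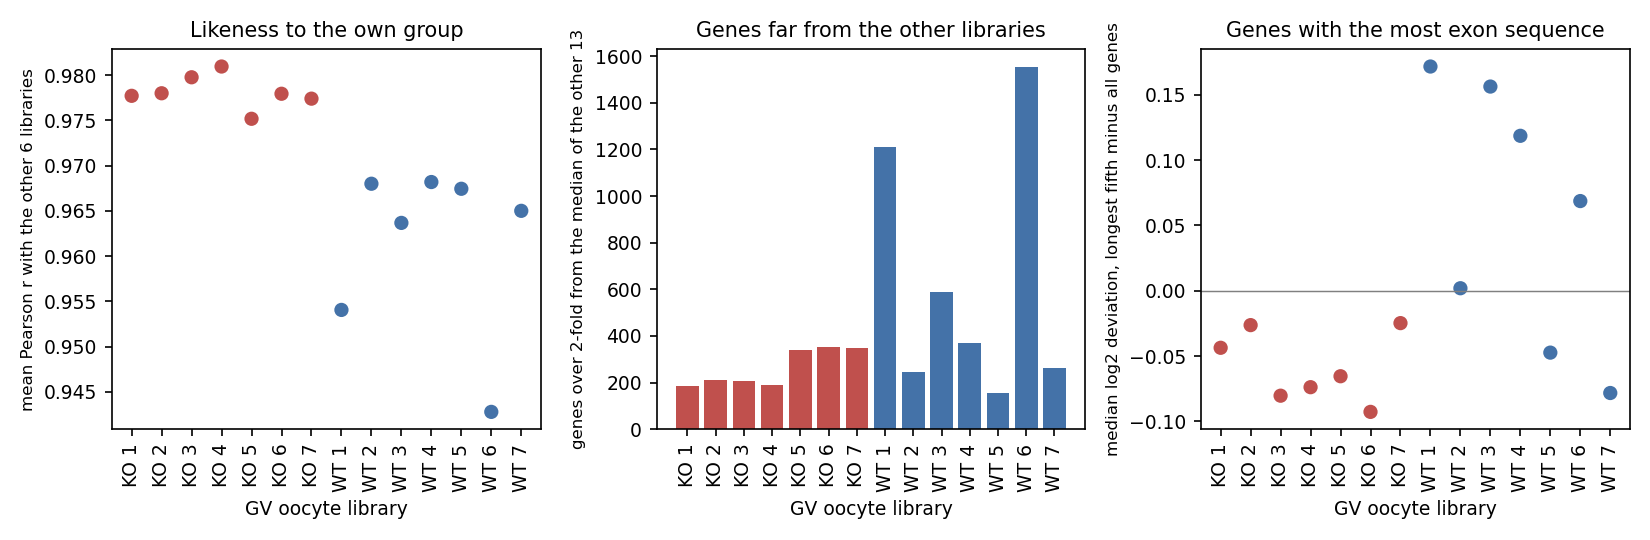
Per library, with KO oocytes in red and WT oocytes in blue: mean Pearson r with the other 6 libraries of the group (left), number of genes over 2-fold from the median of the other 13 libraries (middle), and median log2 deviation of the genes with at least 6355 exon bases, minus that of all genes (right). WT oocytes 1 and 6 have 1212 and 1552 deviating genes, and WT oocytes 1, 3, 4 and 6 lie above 0 by 0.069 to 0.172 on the right.

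A few transcripts show how these oocytes differ, all chosen after their values were seen. *Lars2*, the mitochondrial leucyl-tRNA synthetase, was at 165.3 to 459.2 normalized counts in KO oocytes (median 217.8), against 2526, 1137 and 1011 in WT oocytes 1, 3 and 4 and 257.5 to 518.5 in the other 4. The nuclear non-coding RNA *Malat1* was at 1.76 to 15.97 in KO oocytes and at 4.44 to 61.4 in WT oocytes, highest in WT oocytes 6, 4 and 1. *Gli3*, a Hedgehog pathway transcription factor, was nearly absent from WT oocytes 1 and 6 (0.475 and 0) and from KO oocyte 1 (0), and ranged from 10.7 to 61.4 in the other 11. Because of such differences, the counts of calls below are also given without WT oocytes 1 and 6, and without WT oocytes 1, 3, 4 and 6, and the text says which of the named genes were then no longer called. These 4 oocytes had the 4 highest values in the exon-length measure described further on and were chosen after the data were seen.

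*Zfp708* itself was expressed in both groups. It had 72.6 to 121.7 normalized counts in KO oocytes (median 96.1), against 44.2 to 122.4 in WT oocytes (median 74.5), so the groups overlapped, with 3 WT oocytes below the lowest KO value. The means were 97.7 ± 15.4 in KO and 79.7 ± 28.0 in WT (SD, n = 7 each), with a log2 fold change of 0.35 (exact two-sided permutation p = 0.129, limma adjusted p = 0.251). The gene lies on the minus strand of chromosome 13 from 67170336 to 67198912 (mm9). Of 23 *Rsl* cluster genes, itself included, 11 were tested and 0 were called by limma, beside 3.64% of all genes tested. None had an unadjusted p under 0.05, beside 22.6% of all genes. Of the 11 fold changes 10 were positive, where 50.2% of all genes were negative (median 0.29, or 0.08 without WT oocytes 1, 3, 4 and 6). Reads of these near-identical paralogs may be split or lost in counting. Of the 45 genes tested within 5 Mb of *Zfp708*, 1 was higher and 0 were lower in KO oocytes, beside 1.44% and 2.2% of all genes tested.

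Of the genes beside ZFP708-bound RMER19B elements, only the 3 that the text of the study names were looked up here, and they did not pass. The study examined all genes near its bound elements and reported no significant change among them in GV oocytes. *Uck2*, a uridine-cytidine kinase on chromosome 1 (169156221 to 169215258), had 192.7 to 270.4 normalized counts in KO oocytes and 111.3 to 274.5 in WT oocytes (log2 fold change 0.30, adjusted p = 0.216). *Fmnl2*, a formin on chromosome 2, had 2.88 to 8.73 in KO oocytes and 5.37 to 23.5 in WT oocytes, a log2 fold change of -0.91 (adjusted p = 0.0644) that was -0.29 without WT oocytes 1, 3, 4 and 6. *Lgi2*, a secreted leucine-rich repeat protein gene on chromosome 5, was low in both, at 3.36 to 8.31 in KO and 2.80 to 6.58 in WT (log2 fold change 0.19, adjusted p = 0.656).

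Over all 11775 genes tested, limma called 170 genes higher (1.44%) and 259 lower (2.2%) in KO oocytes at an adjusted p under 0.05, 429 in all (3.64%). Most changes were below 2-fold. The median log2 fold change was 0.61 among the higher and -0.73 among the lower genes, and 15 of the higher (8.82%) and 47 of the lower (18.1%) reached an absolute log2 fold change of 1. Over all genes the median log2 fold change was -0.00, the median of its absolute value 0.20 and the median standard error 0.17. All 7 KO values lay above all 7 WT values for 79 genes (0.671%) and below them for 83 (0.705%), of which 64 and 62 were called. Genes were called at every level: below 5 normalized counts 0.166% were higher and 1.04% lower, and at 100 and above 2.66% were higher and 2.66% lower.

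These counts changed when the WT oocytes that stood apart were left out. Without WT oocytes 1 and 6, 243 genes were called (109 higher, 134 lower), including 206 of the 429. Without WT oocytes 1, 3, 4 and 6, 41 were called (36 higher, 5 lower), including 33 of the 429. All 429 kept their sign in both fits, while their median absolute log2 fold change of 0.66 became 0.56 and 0.40. The fit with 3 WT oocytes has fewer samples as well as smaller differences. Leaving out 1 library alone gave 152 (without KO oocyte 4) to 781 (without WT oocyte 5) called genes. How much of the drop came from these WT oocytes and how much from fewer samples was not tested.

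Genes higher in KO oocytes were led by *Cebpb*, which encodes the transcription factor C/EBPβ and had the largest increase of all calls. It had 20.4 to 46.9 normalized counts in KO oocytes (median 35.9), against 6.76 to 17.6 in WT oocytes (median 11.4), with no overlap. On the log2 scale it was 1.41 ± 0.23 higher (SE of the fit, limma adjusted p = 0.0046), and 1.14 (adjusted p = 0.0700) without WT oocytes 1, 3, 4 and 6. *Cebpb* is an intronless gene on chromosome 2 (167514415 to 167515918). *Tmem189*, which encodes an ethanolamine lipid desaturase, is annotated on the opposite strand over 312 of the 1504 *Cebpb* exon bases, and its log2 fold change was 1.01 (adjusted p = 0.015, and 0.0655 without WT oocytes 1, 3, 4 and 6). The library kit does not mark strand, so reads from the shared stretch cannot be assigned to either gene.

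*Kcnmb2*, a regulatory subunit of the calcium-activated BK potassium channel, had 13.8 to 28.0 normalized counts in KO oocytes (median 17.0), against a narrow 6.71 to 8.95 in WT oocytes (median 8.29). The log2 fold change was 1.02 (adjusted p = 0.0046) and remained past the threshold without WT oocytes 1, 3, 4 and 6 (1.13, adjusted p = 0.0108). Both LIM-domain genes *Csrp1* and *Crip2* rose. *Csrp1*, whose product binds the actin cytoskeleton, was at 16.5 to 28.5 in KO and 7.28 to 14.8 in WT oocytes (log2 fold change 1.01, adjusted p = 0.0046). *Crip2* was at 17.7 to 30.7 in KO and 8.01 to 20.2 in WT oocytes, overlapping through single libraries (1.05, adjusted p = 0.00595). *Coro2b*, a coronin of the actin cytoskeleton, reached 79.1 to 153.8 in KO oocytes, against 32.2 to 81.9 in WT oocytes, where 3 oocytes lay at 78 to 82 and 4 at 43 or less (1.15, adjusted p = 0.00916). The phosphatase inhibitor gene *Fam122a* was at 42.2 to 83.3 in KO and 17.9 to 37.2 in WT oocytes (1.00, adjusted p = 0.0046). *Coro2b* was no longer called without WT oocytes 1 and 6 (0.94, adjusted p = 0.0657) or without WT oocytes 1, 3, 4 and 6 (0.94, adjusted p = 0.357), and *Csrp1* was not in the second of these fits (0.81, adjusted p = 0.0633). *Crip2* and *Fam122a* passed in both.

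The other 7 higher genes had log2 fold changes of 1.01 to 1.22. *Rspry1*, with RING and SPRY domains, *Map3k21*, a mixed-lineage kinase, and *Ap3b2*, a neuronal adaptor subunit, were among them, as were *Dhrs3*, a retinaldehyde reductase, *Fbln5*, an elastic fibre protein, and *Plekhh1*. *Trim30d*, a tripartite motif gene with near-identical neighbours, was at 6.45 to 9.10 in KO oocytes and 0.775 to 5.14 in WT oocytes. The log2 fold changes of *Trim30d* (1.48) and *Rspry1* (1.3) without WT oocytes 1, 3, 4 and 6 passed the threshold, and those of *Map3k21* (1.06), *Ap3b2* (1.02), *Dhrs3* (0.65), *Fbln5* (0.48) and *Plekhh1* (0.91) did not. *Trim30d* and *Map3k21* passed without WT oocytes 1 and 6, whereas *Rspry1* (0.88, adjusted p = 0.0716), *Dhrs3*, *Fbln5*, *Plekhh1* and *Ap3b2* did not (adjusted p = 0.0541 to 0.0734 for the 5 genes).

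**Figure D2:**
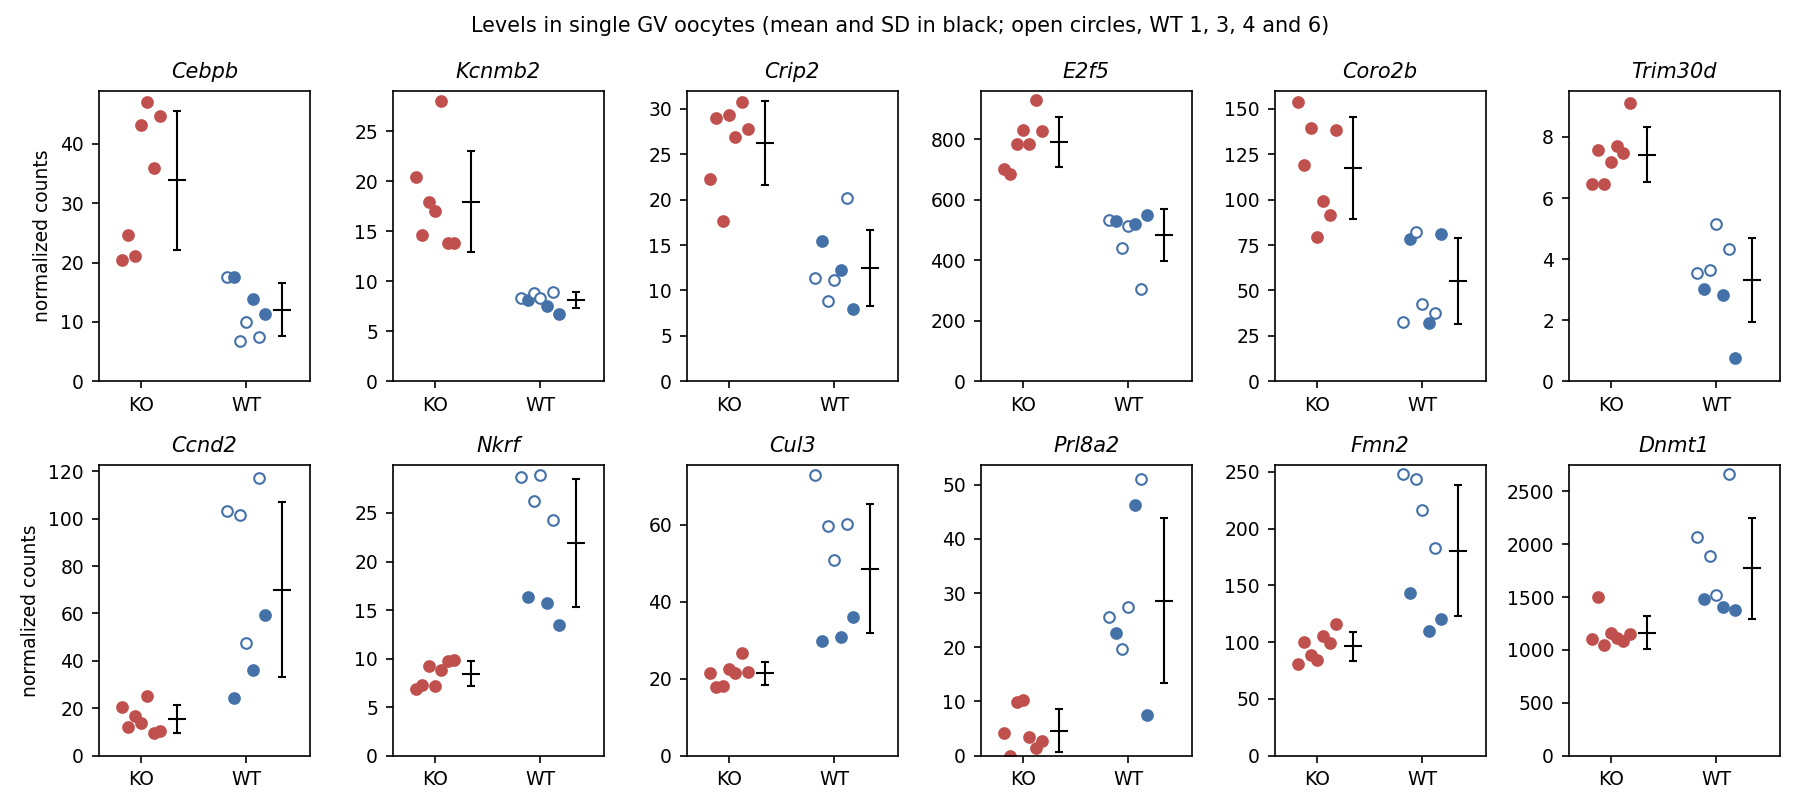
Normalized counts of 6 genes called higher (top) and 6 called lower (bottom) in KO oocytes. Each point is 1 oocyte (KO red, WT blue, with WT oocytes 1, 3, 4 and 6 as open circles), bars give the mean and SD of 7 oocytes, and the axes start at 0. WT oocytes 1, 3 and 6 hold the highest *Ccnd2* values, at 101.7 to 117.3.

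Genes lower in KO oocytes were led by *Ccnd2*, which encodes cyclin D2, a driver of the G1 phase. KO oocytes had 9.36 to 25.3 normalized counts (median 13.8), against 24.5 to 117.3 in WT oocytes (median 59.1), with WT oocytes 1, 3 and 6 above 100 and WT oocyte 2 below the highest KO value. On the log2 scale the change was -1.99 ± 0.29 (SE of the fit, limma adjusted p = 0.00309), and -1.30 (adjusted p = 0.0726) without WT oocytes 1, 3, 4 and 6. *Nkrf*, a repressor of NF-κB targets on chromosome X, had 6.86 to 9.90 in KO oocytes, against 13.4 to 28.9 in WT oocytes, with no overlap (-1.24, adjusted p = 0.00309). *Cul3*, the scaffold of a family of ubiquitin ligases, had 17.9 to 26.6 in KO oocytes, against 29.9 to 72.8 in WT oocytes, again with no overlap (-1.08, adjusted p = 0.0046). With only WT oocytes 2, 5 and 7 as controls these log2 fold changes were -0.78 and -0.58 (adjusted p = 0.0894 and 0.114).

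*Prl8a2*, a prolactin family gene best known from the decidua, had the largest decrease of all calls. KO oocytes had 0 to 10.4 normalized counts (median 3.53), against 7.49 to 51.1 in WT oocytes (median 25.6), and only WT oocyte 7 lay within the KO range. The fold change on the log2 scale was -2.59 ± 0.44 (SE of the fit, adjusted p = 0.00581), and it was still -2.30 without WT oocytes 1, 3, 4 and 6, where it no longer passed (adjusted p = 0.395). The neighbouring oocyte KH-domain genes *Khdc1a* and *Khdc1c* on chromosome 1 fell together. *Khdc1c* was at 14.3 to 22.2 in KO and 23.2 to 88.5 in WT oocytes (-1.11), and *Khdc1a* at 8.32 to 16.8 in KO and 16.4 to 69.0 in WT oocytes (-1.16). As near copies they may share reads.

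*Kmt2b*, an H3K4 methyltransferase that acts in growing oocytes, was at 15.6 to 25.3 in KO and 25.8 to 90.4 in WT oocytes (log2 fold change -1.12, adjusted p = 0.0138). *Trrap*, the scaffold of histone acetyltransferase complexes, was at 12.9 to 25.7 in KO and 21.7 to 61.1 in WT oocytes (-1.05, adjusted p = 0.0113). *Hnrnpul2*, an hnRNP U relative, was at 40.5 to 55.8 in KO and 65.9 to 158.2 in WT oocytes (-1.02, adjusted p = 0.00593), and *Cdc5l*, a spliceosome component, at 0.280 to 2.71 in KO and 1.40 to 15.9 in WT oocytes (-1.72, adjusted p = 0.0143). The remaining genes of this group were *Pura*, a DNA- and RNA-binding protein gene, *Armh4*, *Fam8a1*, *Tmem163*, *Prelid2*, *Unc13a*, *Itgb3*, *Wfdc1*, *Synpo* and *Arhgef26*, with log2 fold changes of -1.62 to -1.02. None of the 20 lower genes named so far passed without WT oocytes 1, 3, 4 and 6, with log2 fold changes of -2.30 to -0.46 and adjusted p-values of 0.0555 to 0.447. *Prl8a2* was the only one of the 20 that did not pass without WT oocytes 1 and 6 alone (-2.38, adjusted p = 0.0643).

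A smaller set was also called without the WT oocytes that stood apart. In the full fit, in both fits with fewer WT oocytes and in a fit without exon-length trends, 25 genes were called, 20 higher and 5 lower. Part of this set is named here after its values were seen. *Orai1*, the pore subunit of store-operated calcium channels, was at 100.9 to 151.9 normalized counts in KO oocytes and 49.9 to 80.0 in WT oocytes (log2 fold change 0.88, adjusted p = 0.00309, and 0.84 with 3 WT oocytes). The gene pair *E2f5* and *E2f4*, whose products are the E2F factors that pair with p107 and p130, rose without overlap between the groups. *E2f5* was at 686.9 to 930.3 in KO and 306.2 to 551.6 in WT oocytes (0.72, adjusted p = 0.00468), and *E2f4* at 95.8 to 133.5 in KO and 38.1 to 81.2 in WT oocytes (0.75, adjusted p = 0.0129).

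*Hras*, a small GTPase gene, was at 54.1 to 71.2 in KO and 26.5 to 46.3 in WT oocytes (log2 fold change 0.76), and its relative *Rras2* at 167.4 to 226.3 in KO and 106.1 to 149.2 in WT oocytes (0.63). *March5*, a ubiquitin ligase of the outer mitochondrial membrane, was at 601.0 to 758.6 in KO and 316.8 to 498.5 in WT oocytes (0.74). *Ube2s*, which extends ubiquitin chains for the anaphase-promoting complex, and *Dcun1d5*, which promotes neddylation of cullins, had log2 fold changes of 0.85 and 0.64. Higher too were *Lrrc8a*, the essential subunit of volume-regulated anion channels (0.54), *Eif3b*, a translation initiation factor subunit (0.68), and *Snx9*, a sorting nexin of endocytosis (0.45).

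The 5 lower genes of the set were *Wnk1*, *Fank1*, *Dnajc9*, *Ly6e* and *Mroh3*. *Wnk1*, a kinase that controls ion cotransport, was at 122.2 to 148.3 normalized counts in KO and 165.3 to 373.7 in WT oocytes (log2 fold change -0.87, and -0.44 with 3 WT oocytes). *Fank1*, with fibronectin and ankyrin repeats, was at 40.0 to 54.1 in KO and 61.7 to 83.4 in WT oocytes (-0.59, and -0.62 with 3 WT oocytes). *Dnajc9*, a co-chaperone that binds histones, was at 122.9 to 148.6 in KO and 143.4 to 200.1 in WT oocytes, where WT oocyte 6 alone reached the KO range (-0.50, and -0.55 with 3 WT oocytes).

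Transcripts that define the oocyte were measured at high levels in both groups. Among 10 genes of the zona pellucida and gamete fusion, 14 oocyte-secreted factors and follicle signals, 16 genes of the subcortical maternal complex and Nlrp family, and 36 genes of meiotic arrest and resumption, limma called 0 in either direction, where 1, 3, 3 and 9 had an unadjusted p under 0.05, beside 22.6% of all genes tested. *Gdf9* and *Bmp15*, the growth factors by which the oocyte steers its follicle, averaged 5036 ± 1529 and 3939 ± 529 in KO oocytes, against 5309 ± 462 and 3793 ± 529 in WT oocytes (SD, n = 7 each). *Zp3* averaged 3794 ± 513 in KO and 3413 ± 570 in WT oocytes. *Zbed3*, of the subcortical maternal complex and the most abundant gene in WT, was at 9615 to 12085 in KO and 4462 to 9931 in WT oocytes (log2 fold change 0.42, adjusted p = 0.0934). *Mos*, the kinase behind the later metaphase arrest, had a log2 fold change of 0.30 (adjusted p = 0.118).

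Of 15 oocyte transcription factor genes, 0 were higher and 2 were lower, beside 1.44% and 2.2% of all genes tested. *Foxo3*, which holds primordial follicles at rest, was at 173.8 to 253.7 normalized counts in KO oocytes (median 218.5), against 264.5 to 457.8 in WT oocytes (median 319.3), with no overlap (log2 fold change -0.63, adjusted p = 0.0138). *Bnc1*, encoding basonuclin, was at 63.9 to 78.8 in KO and 69.3 to 138.6 in WT oocytes (-0.59, adjusted p = 0.0306). Neither passed without WT oocytes 1, 3, 4 and 6 (-0.33 and -0.19), and *Bnc1* did not without WT oocytes 1 and 6 (-0.49, adjusted p = 0.0654).

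Of 30 genes of the TRIM28, H3K9 methylation and HP1 machinery through which KRAB zinc-finger proteins act, 1 was higher and 3 were lower (13.3% called, beside 3.64% of all genes tested, with a median log2 fold change of -0.07). The higher gene was *Hdac2*, a deacetylase of NuRD, at 132.0 to 159.3 in KO and 76.2 to 126.3 in WT oocytes (log2 fold change 0.48, adjusted p = 0.0235). *Gatad2b* and *Chd4*, further NuRD subunits, had log2 fold changes of -0.81 and -0.59, and *Mphosph8*, the H3K9me3 reader of the HUSH complex, one of -0.61. *Dnmt1*, the maintenance DNA methyltransferase that oocytes store for the embryo, was lower, at 1045 to 1496 in KO and 1373 to 2668 in WT oocytes (-0.57). *Arid1b* and *Smarca2* were the 2 lower of 21 SWI/SNF remodelling genes (-0.53 and -0.48), beside 2.2% of all genes tested. None of these 7 genes passed without WT oocytes 1, 3, 4 and 6, and *Chd4* and *Smarca2* did not without WT oocytes 1 and 6 (adjusted p = 0.0929 and 0.0585). Among 23 Polycomb and 16 histone lysine demethylase genes limma called 0, with 4 and 5 at an unadjusted p under 0.05, beside 22.6% of all genes tested. Of the 16 demethylase genes 13 had a negative log2 fold change, beside 50.2% of all genes tested, and the median was -0.30 (-0.05 without WT oocytes 1, 3, 4 and 6).

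Of 24 septin and formin genes of the cytoskeleton 3 were lower, beside 2.2% of all genes tested. *Fmn2*, the formin that moves the meiotic spindle to the cortex, was at 80.4 to 116.0 in KO oocytes (median 99.5), against 110.0 to 247.9 in WT oocytes (median 183.0), with WT oocytes 2, 5 and 7 lowest in WT (log2 fold change -0.84, adjusted p = 0.0113). *Fhod3* and *Diaph1* had log2 fold changes of -0.69 and -0.67. The 3 values without WT oocytes 1, 3, 4 and 6 were -0.37, -0.34 and -0.29, and none passed. *Diaph1* did not pass without WT oocytes 1 and 6 either (adjusted p = 0.0530).

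In other lists 1 or 2 members were called, which is 3.23% to 11.1% of the members tested. Over all genes tested 3.64% were called, 1.44% higher and 2.2% lower. With so few calls per list, they are given gene by gene and not as results of a list. None of the 19 genes named here passed without WT oocytes 1, 3, 4 and 6 (adjusted p = 0.0645 to 0.635). Of 29 ER and integrated stress response genes 2 were lower: *Ern1*, the unfolded-protein sensor IRE1α (-0.49), and *Hsp90b1*, the chaperone GRP94 (-0.44). The heat-shock list had *Dnajb1* higher (0.46) and *Ahsa2* lower (-0.47) of 30. *Ahsa2* shares 1321 of its 4532 exon bases with *Usp34* on the opposite strand, which was itself lower (-0.71, limma adjusted p = 0.0188). The proteasome list had *Psmd11* higher (0.38) and *Psme4* lower (-0.61) of 34, while *Nfe2l1*, a transcription factor of proteasome genes, was lower (-0.80). Meiotic cohesin and synaptonemal genes had *Msh4*, a crossover factor, higher (0.61) and *Rad21*, a cohesin subunit, lower (-0.67) of 26. In RNA control, *Pabpn1l*, an egg poly(A)-binding protein gene, was higher (0.54), and *Pum2*, a translational repressor, and *Piwil1*, a piRNA-binding protein gene, were lower (-0.61 and -0.67). Imprinted genes had *Mest* higher (0.44) and *Igf2r* lower (-0.80) of 18. The last calls in lists were *Srsf2* higher and *Son* lower among SR splicing factors, *Tpr* and *Wipi1* lower, and *Acsl3* higher. Without WT oocytes 1 and 6, *Ahsa2*, *Psme4*, *Psmd11*, *Msh4*, *Rad21*, *Pabpn1l*, *Piwil1*, *Mest*, *Igf2r* and *Srsf2* did not pass (adjusted p = 0.0541 to 0.114).

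Of 78 ribosomal protein genes limma called 0, and 12 had an unadjusted p under 0.05, beside 22.6% of all genes tested. A negative log2 fold change was found for 74 of them (median -0.20), beside 50.2% of all genes tested, and of 68 nuclear oxidative phosphorylation genes 53 were negative (median -0.13). These medians were -0.06 and -0.01 without WT oocytes 1 and 6, and -0.05 and -0.02 without WT oocytes 1, 3, 4 and 6. Over 38 lists, the medians ran from -0.30 to 0.29, beside -0.00 for all genes.

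**Figure D3:**
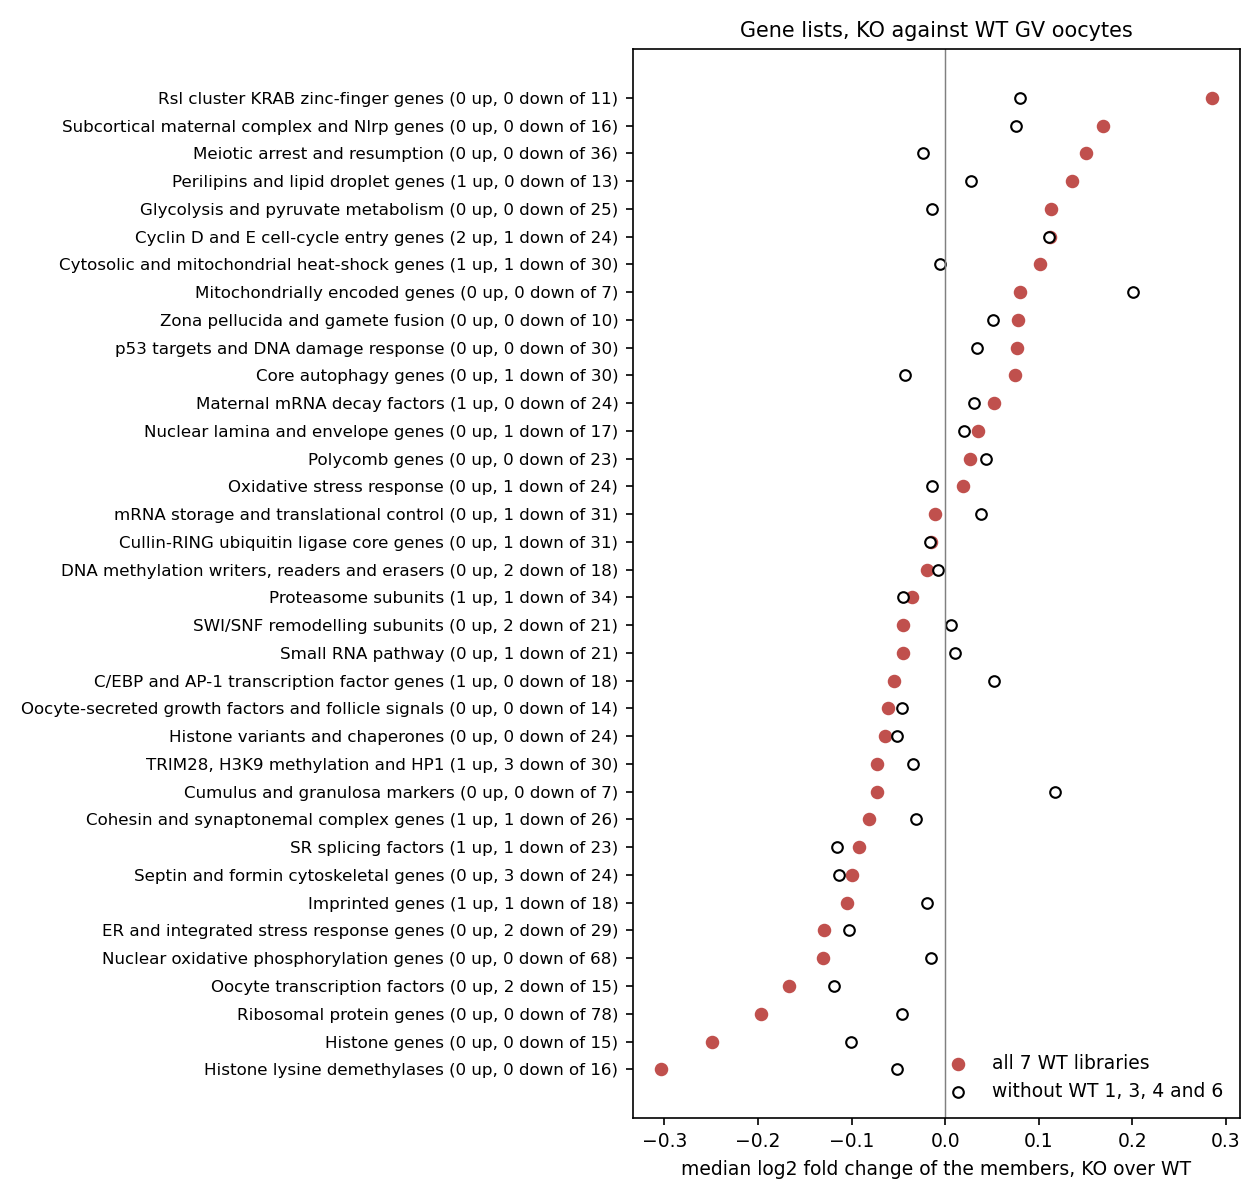
Median log2 fold change, KO over WT, of the members of 36 gene lists with at least 7 members tested, from all 14 libraries (red) and without WT oocytes 1, 3, 4 and 6 (open circles), and in brackets the numbers called of those tested. The median of ribosomal protein genes is -0.20 with all libraries and -0.05 without those 4 oocytes, whereas the median of the cyclin D and E list is 0.11 in both.

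Most markers of other ovarian cells were low, with *Cyp19a1* and *Pecam1* as exceptions. *Cyp19a1* was at 41.4 to 63.2 in KO and 30.6 to 64.8 in WT oocytes. The median of the group means over all genes tested was 25.2 in KO and 25.9 in WT. The summed counts of 20 cumulus and granulosa markers were 87.3 to 104.5 in KO oocytes and 74.7 to 143.4 in WT oocytes (exact p = 0.471), mostly *Cyp19a1*, *Nr5a2* and *Kitl*. The sum hides opposite directions. Means were higher in KO for *Cyp19a1* (51.3 against 45.2), *Cyp11a1*, *Star* and *Lhcgr*. They were higher in WT for all other markers with any count, such as *Inha* (5.66 in KO, 9.67 in WT) and *Inhbb* (0.19 in KO, 2.93 in WT). Among these 20 markers *Tnfaip6* was at 0 in all 14 libraries, *Ptx3* at 0 in 13 and *Amh* at 0 in 11. *Foxl2* and *Amhr2* were at 0 in 5 libraries each and reached 0.572 and 1.90 in WT oocytes. *Inha* was found in all 14, at 0.541 to 11.9 in KO and 1.63 to 18.5 in WT oocytes, *Inhbb* at 0 to 0.792 in KO and 0.233 to 8.06 in WT oocytes, and *Fshr* at 0 to 2.42 in KO and 0 to 4.94 in WT oocytes. The part of these cells in the results was not tested. Stroma, blood and endothelial markers summed to 49.4 to 78.6 in KO and 36.3 to 70.2 in WT oocytes (exact p = 0.0705, adjusted p = 0.165), nearly all from *Pecam1* (48.3 to 76.5 in KO, 34.4 to 61.6 in WT), while *Col1a2*, *Cdh5* and the globin genes *Hbb-bt*, *Hba-a1* and *Hba-a2* were at 0 throughout.

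With all 14 libraries the lower genes had long transcripts. Their median summed exon length was 6801 bases, against 3287 bases for the higher genes and 3703 bases for all genes tested, and their median coding length was 3028.5 bases, against 1275 and 1383 bases. Without WT oocytes 1 and 6 the median exon lengths were 6584.5 bases for the lower and 2790 bases for the higher genes, and without WT oocytes 1, 3, 4 and 6 they were 2301 bases for the 5 lower and 2418 bases for the 36 higher genes, so that the contrast was no longer seen. In 5 equal groups of genes by exon length, the longest (at least 6355 bases) held 140 of the 259 lower genes (54.1%) and 24 of the 170 higher genes (14.1%). In this longest group 5.94% of genes were lower, and in the other 4 groups 0.679% to 2.25%. *Kmt2b*, *Trrap*, *Wnk1* and *Foxo3* belong to the longest group, whereas *Nkrf*, *Prl8a2* and *Khdc1c* do not.

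This feature moved with the libraries. The median log2 deviation of the long genes from their level over the 14 libraries, minus that of all genes, was -0.093 to -0.025 in KO oocytes, against -0.078 to 0.172 in WT oocytes, where WT oocytes 1, 3, 4 and 6 had 0.172, 0.156, 0.119 and 0.069 and the other 3 had 0.002 or less (exact two-sided permutation p = 0.0163, added after the data were seen). With the trend along exon length taken out of every library, 378 genes were called (185 higher, 193 lower), including 310 of the 429. The median exon lengths were then 4258 bases for the higher and 4929 bases for the lower genes. Of the called genes named above, *Arid1b*, *Chd4*, *Psme4*, *Srsf2*, *Tpr* and *Acsl3* did not pass in this fit (limma adjusted p = 0.0578 to 0.0986). What set the trend in these 4 oocytes was not tested.

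**Figure D4:**
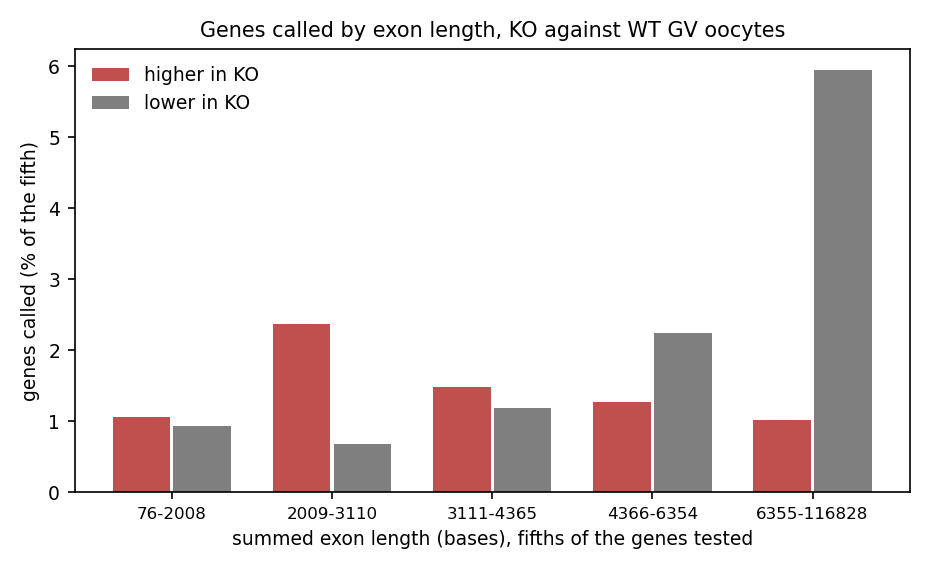
Share of genes called higher (red) and lower (grey) in KO oocytes, in percent, in 5 equal groups of the genes tested by summed exon length in bases. Lower calls reach 5.94% in the longest group, and higher calls peak at 2.38% in the second.

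In promoters, the sequence available in RefSeq (GRCm38.p6) from 250 bases before to 50 bases after the start matched 9526 of the genes tested, among them 139 higher and 198 lower genes. The TATA box letters TATAAA, on either strand, stood in 26 of 191 windows of the higher genes (13.6%) and 13 of 250 windows of the lower genes (5.2%), beside 907 of 12146 windows of all matched genes (7.47%). The GC box letters GGGCGG stood in 68.6% of the higher and 67.2% of the lower windows, beside 59.7% of all, and CCAAT in 39.3% of the higher and 36% of the lower windows, beside 38.1% of all. The windows of *Cebpb* and *Cul3* are shown because both are among the strongest calls and have a window, with GC boxes and TATA boxes on either strand in capitals. *Cebpb* (chr2:167688665-167688964, plus strand) has 5 GC boxes, of which a pair overlap, and 1 TATAAA after the annotated start, and *Cul3* (chr1:80340641-80340940, minus strand) has 3 GC boxes and no TATAAA.
Cebpb: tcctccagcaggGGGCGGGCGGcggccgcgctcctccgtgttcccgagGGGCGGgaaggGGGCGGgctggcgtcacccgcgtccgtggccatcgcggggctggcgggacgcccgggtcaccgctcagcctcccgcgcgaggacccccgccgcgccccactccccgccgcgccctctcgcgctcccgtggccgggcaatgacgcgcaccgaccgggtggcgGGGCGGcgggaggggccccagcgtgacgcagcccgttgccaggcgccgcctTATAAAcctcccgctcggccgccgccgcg
Cul3: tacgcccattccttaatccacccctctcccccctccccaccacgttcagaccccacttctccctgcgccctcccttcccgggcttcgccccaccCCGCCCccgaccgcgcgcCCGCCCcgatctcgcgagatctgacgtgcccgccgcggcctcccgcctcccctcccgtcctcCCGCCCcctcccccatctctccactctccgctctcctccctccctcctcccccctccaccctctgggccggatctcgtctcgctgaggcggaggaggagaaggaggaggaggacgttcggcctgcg

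Zygotes of the same study give a second set of cells, 7 from KO and 7 from WT females, in which 8.19% of 11168 genes tested were higher and 6.38% lower. Of the 417 genes called in GV oocytes and tested in zygotes, 302 had the same sign there (72.4%, beside 59.0% of all 10914 genes tested in both stages). Of these 57 were also called in the same direction, which is 13.3% of the GV calls and 3.5% of the zygote calls, and 19 were called in the opposite direction. Without WT oocytes 1 and 6 the 57 were 34, and without WT oocytes 1, 3, 4 and 6 they were 7. In a joint fit the KO effect differed between the stages for 86 of the 417 (20.6%), beside 8.06% of all genes. The 417 were chosen by oocyte values that also enter this fit. Their larger share therefore does not show that the effect depends on stage.

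Genes called the same way, named after their values were seen, include *Rap1b*, a small GTPase, at 131.5 to 238.3 in KO and 106.1 to 117.8 in WT oocytes (log2 fold change 0.80) and at 366.5 ± 57.5 in KO and 238.7 ± 40.1 in WT zygotes (0.62, SD, n = 7 each). *Orai1* (0.88 and 0.78), *Rras2* (0.63 and 0.54), *Csrp1* (1.01 and 1.06), *Crip2* (1.05 and 0.87) and *Stk24*, a sterile 20-like kinase gene (0.57 and 0.47), were higher in both stages. *Ckb*, the brain-type creatine kinase, was higher in both, by 0.48 in oocytes and 1.45 in zygotes. Lower in both were *Adam10*, a membrane sheddase (-0.47 and -0.65), *Taok2*, a kinase (-0.79 and -0.85), and *Htt*, the huntingtin gene (-0.72 and -1.27). Of these 10 genes, *Orai1*, *Rras2* and *Crip2* were still called in oocytes without WT oocytes 1, 3, 4 and 6.

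Genes called in opposite directions were rarer. *Rnf130*, a RING ubiquitin ligase gene, was at 37.61 to 46.3 in KO and 22.4 to 36.3 in WT oocytes (0.56), but at 9.16 ± 3.83 in KO and 42.9 ± 7.64 in WT zygotes (-2.20). *Cers2*, a ceramide synthase, *Il1rap*, a receptor chain for interleukin 1, and *Rtn4r*, the Nogo receptor, were likewise higher in KO oocytes (0.62, 0.59 and 0.85) and lower in KO zygotes (-1.12, -1.69 and -1.27). *C1qb*, a complement chain, had medians of 39.2 in KO and 72.3 in WT oocytes, with no overlap (-0.97), and means of 16.4 ± 1.86 in KO and 9.83 ± 2.54 in WT zygotes (0.71). The oocyte calls of *Cers2*, *Il1rap* and *C1qb* were lost without WT oocytes 1, 3, 4 and 6, and those of *Rnf130* and *Rtn4r* were not.

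**Figure D5:**
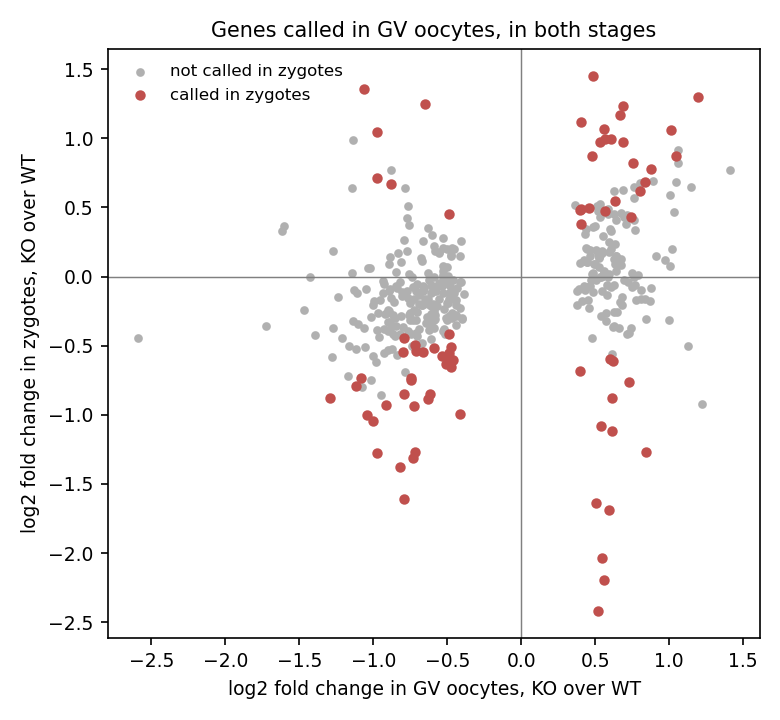
Log2 fold changes, KO over WT, of the 417 genes called in GV oocytes (horizontal) and of the same genes in zygotes (vertical), with genes also called in zygotes in red. Of the red genes 57 share their direction and 19 do not.

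In normal development many of the genes higher in KO oocytes belong to transcripts that decline. Between WT zygotes and WT 2-cell embryos, 76.5% of the higher genes were lower in the 2-cell embryo, with a median log2 change of -1.11, against 51.4% and -0.06 for the lower genes and 56.9% and -0.27 for all genes tested. Without WT oocytes 1 and 6 the median of the higher genes was -0.63, and without WT oocytes 1, 3, 4 and 6 it was -0.30, close to that of all genes.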

How the data were processed

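The authors sequenced single oocytes with a full-length protocol and Nextera XT libraries on a NextSeq500, aligned reads with STAR 2.4.2a and counted them per gene with HTSeq. The methods give a reverse-stranded counting setting, although this kit does not mark strand. Of 118 genes examined by name, 20 share exon bases with another gene in the annotation, and 9 share over 10% of them. Among these 9 are *Ahsa2*, *Cebpb*, *Hsp90b1*, *Lrrc8a*, *Mest*, *Mphosph8*, *Plekhh1* and *Tmem189*. The deposited values are a signal, gene counts that the authors divided by DESeq2 size factors over all libraries. All values were whole multiples of 1 read within 0.01, so reads could be recovered. Of 18504 rows, 108 repeats of a gene were dropped and 26 symbols altered to dates were mended, leaving 18396 genes.

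limma 3.58.1 (R 4.3.3, trended and robust) was run on log2(value + 1) for genes with at least 1 in at least 7 of 14 libraries, with Benjamini-Hochberg adjustment and a threshold of 0.05. Fold changes on this scale understate the change of low genes. edgeR 4.0.16 and DESeq2 1.42.0 on the recovered reads were alternatives, since the deposited unit is not counts. Other alternatives were pseudocounts, filters, normalizations, sample weights, a replicate block, other thresholds and each library left out. Single library measures were compared by exact permutation. The scripts were tested on simulated data. For GV oocytes, 28.5% of genes changed 1.5-fold were recovered, and 10.9% of the calls were false. At 2-fold these shares were 68.5% and 3.52%. The simulation gave both groups the same spread per gene, unlike the data, where WT oocytes varied more.

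The genes and lists were chosen with earlier results of these data known. Genes eligible for naming were *Zfp708* and 3 genes beside bound elements, up to 20 per direction with the smallest p among calls that changed by 1 or more on the log2 scale (predicted genes, pseudogenes and histone genes left out), up to 4 called members per list, up to 3 abundant members of lists without calls, and the 5 most abundant genes. Others are said to be chosen after their values were seen. Results for 2 called genes are not reported here. Exon lengths are from the Ensembl annotation of mm9. The deposited columns of all samples were used as labelled.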

Additional observations from a re-analysis of the deposited data

Results flagged for a closer look

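Single oocytes lay far from the other 6 of their group for 18 of 236 groups of named genes. These genes were chosen in part from the same values, so the number cannot be set against a chance rate. Values in normalized counts were *Csrp1* 28.5 in KO oocyte 7 and 14.8 in WT oocyte 5, *Dhrs3* 50.5 in KO oocyte 6, *Trrap* 25.7 and *Dnmt1* 1496 in KO oocyte 2, *Bnc1* 78.8 in KO oocyte 7, and *Ly6e* 16.8 in KO oocyte 1. In WT oocyte 6 they were *Arhgef26* 18.1, *Oosp1* 3333, *Smarca2* 326.4, *Snx9* 169.7, *Dnajc9* 143.4 and *Ly6e* 145.5. In other WT oocytes they were *Map3k21* 6.07 (oocyte 2), *Tmem163* 7.75 (oocyte 7) and *Khdc1a* 69.0 (oocyte 1). *Lars2* was at 459.2 in KO oocyte 7 and 2526 in WT oocyte 1. The 100 most abundant genes took up 21.3% in KO oocyte 2.

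The KO effect differed between zygotes and GV oocytes for 28 named genes by the interaction test. As the zygote effect minus the oocyte effect on the log2 scale, it was lower in zygotes for *Mos* (-4.17), *Rnf130* (-2.76), *Il1rap* (-2.28), *Rspry1* (-2.14), *Rtn4r* (-2.11), *Cers2* (-1.73), *Map3k21* (-1.63), *Pabpn1l* (-1.62), *Fam122a* (-1.32), *Bub1b* (-1.20), *Ube2s* (-1.16), *H1foo* (-1.02), *Gdf9* (-0.92), *Ccdc74a* (-0.83), *Padi6* (-0.80), *E2f5* (-0.76), *Snx9* (-0.62), *Hdac2* (-0.60) and *Acsl3* (-0.49). It was higher in zygotes for *Prl8a2* (2.15), *Tmem163* (2.12), *Pura* (1.95), *C1qb* (1.69), *Prelid2* (1.43), *Ckb* (0.97), *Fank1* (0.81), *Smarca2* (0.63) and *Ahsa2* (0.62). *Mos* showed the largest such difference among the named genes, at 93.0 ± 44.3 in KO and 1281 ± 164 in WT zygotes (SD, n = 7 each). Many of the named genes were picked for their oocyte effect, and some for opposite calls in oocytes and zygotes. The same values enter the interaction test, so the number of 28 cannot be set against a chance rate.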

How the results depend on the processing

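The count of 429 genes (170 higher, 259 lower) stayed within 1.5 times under pseudocounts (394 and 419), a higher filter (432), other size factors (395), quantile normalization (367), sample weights (577), edgeR (438) and removal of the exon-length trend (378). It was 194 (68 higher, 126 lower) with no filter, 160 (59 and 101) with neither trend nor robust variance, and 974 (363 and 611) with DESeq2. At adjusted p under 0.01 it was 37 (17 and 20), and under 0.1 it was 1087 (464 and 623). It was 243 (109 and 134) without WT oocytes 1 and 6 and 41 (36 and 5) without WT oocytes 1, 3, 4 and 6, both chosen after seeing the data. With a replicate block it was 209 (77 and 132), but same-numbered oocytes correlated at only -0.112 to 0.0489 and 0 of 7 matched their own number best, so the numbers do not pair the samples. The cause of these differences was not tested.

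Of the 11775 genes, those with all KO values above all WT values numbered 127 without WT oocytes 1 and 6. Without WT oocytes 1, 3, 4 and 6 they numbered 237, and those below numbered 235. Such counts can only rise with fewer WT oocytes. They therefore do not show a clearer separation than the 79 and 83 genes (0.671% and 0.705%) found with all 14 libraries. Genes called the same way in zygotes numbered 28 with the block, 168 with DESeq2, 34 without WT oocytes 1 and 6 and 7 without all 4. The median change of the higher genes towards the 2-cell stage was -0.63 and -0.30 in those last 2 settings, and that of the 5 lower genes left in the second was -1.49. The share of counts in the 100 most abundant genes differed by 0.878 percentage points without WT oocytes 1 and 6 (adjusted p = 0.0486).

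Leaving out each library in turn gave 152 (without KO oocyte 4) to 781 (without WT oocyte 5) called genes, 54 to 335 higher and 95 to 460 lower. It gave 18 to 122 genes called the same way in zygotes, 88 to 126 genes with all KO values above and 86 to 146 with all below, and 1214 to 1902 zygote calls. The counts of genes with all values above or below can only rise when a library is left out. The share in the 100 most abundant genes differed by 0.354 to 1.16 points, genes with a read by -329.5 to -204, and *Zfp708* by 0.22 to 0.47.

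The sign turned only for genes that were not called. *Zp3* was -0.025 without WT oocytes 1, 3, 4 and 6. *Zp2* was -0.059 with quantile normalization, -0.013 without the length trend, and -0.022 to 0.21 with single libraries left out. *Bub1b* was -0.031 with quantile normalization, -0.012 with weights, -0.032 without WT oocytes 1 and 6 and -0.11 without all 4. *H1foo* was -0.13 with quantile normalization and -0.0042 without all 4, *Bmp15* was -0.018 without the length trend, *Oosp1* ran from -0.0086 to 0.21 and *Gdf9* from -0.24 to 0.018 with single libraries left out, and *Gli3* was -0.68 and -0.64 without 2 and 4 WT oocytes.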
